A study of Rattus norvegicus with 325 samples.

Results

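The genes described here move calcium into, hold it in and release it from the sarcoplasmic reticulum, the internal calcium store of a muscle fibre. 7 genes were named: Sln, Pln, Atp2a1, Atp2a2, Casq1, Casq2 and Ryr1. They were found by their symbol among 17315 distinct symbols in the count tables. 6 of the 7 were listed, each on a single line, and all 6 passed the filter on low counts in every muscle. Ryr1, the release channel of skeletal muscle, was not found under its symbol and was not analysed here. The rule itself reads only the symbols.

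The study asked how gene expression in muscle changes over the adult life of the rat. Bulk RNA was sequenced from the diaphragm, gastrocnemius, soleus and tibialis anterior of male Sprague Dawley rats, for which the labels name no treatment, at 7 ages from 6 to 27 months (the others being 9, 12, 18, 21 and 24), giving 28 groups of 9 to 13 libraries. Rats were bought young and aged at the supplier before they were moved to the laboratory. Library totals ran from 17.6 to 85.3 M counts, with medians by muscle of 27.9 M (diaphragm), 35.0 M (gastrocnemius), 30.1 M (soleus) and 36.3 M (tibialis anterior). Muscles of an age group were taken on the same day, so age and collection day cannot be told apart. The running numbers in the sample descriptions fall into 3 series: all gastrocnemius libraries are in the first, and the 12-month libraries of the other muscles, with 1 library each at 21 months, are in the third. Differences in level between the gastrocnemius and another muscle therefore cannot be told apart from the series. The same holds for the 12-month comparison in the other muscles, whereas 6, 24 and 27 months of a muscle share a series.

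Contraction starts when calcium leaves the sarcoplasmic reticulum through the ryanodine receptor, and relaxation follows when SERCA pumps return it. Atp2a1 encodes SERCA1, the pump of fast fibres, and Atp2a2 encodes SERCA2, the pump of slow fibres and the heart. Sarcolipin (Sln) and phospholamban (Pln) are small membrane peptides that bind the pumps and lower their activity, and sarcolipin is also known for letting the pump use ATP without full calcium transport, which releases heat. Calsequestrin binds calcium inside the store: Casq1 is its fast-fibre form and Casq2 its slow-fibre and cardiac form. The soleus of the rat is mainly slow, the gastrocnemius and tibialis anterior are mainly fast, and the diaphragm is mixed.

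The 2 pumps and the 2 calsequestrins form pairs whose members sit in different fibre types. With age the slow forms did not move together in the fast limb muscles. From 6 to 27 months the log2 changes of Casq2 and Atp2a2 were 1.22 and -0.42 (tibialis anterior) and 1.04 and -0.46 (gastrocnemius). After each group mean was taken out, r over all libraries was 0.51 for the fast and for the slow forms. The 28 group means also hold the differences between muscles. Over them fast forms ran alike (Pearson's r of Atp2a1 with Casq1 0.96), as did slow forms (Atp2a2 with Casq2 0.97). Their promoters are shown for that reason, as the 250 bases before the start in RefSeq's annotation of GRCr8, read 5′ to 3′ on the strand of the gene, with each E-box (CANNTG, which reads alike on both strands) in capitals. They lie at chr1:190475411-190475660 on the minus strand for Atp2a1, chr13:87212711-87212960 on the minus strand for Casq1, chr12:39733269-39733518 on the plus strand for Atp2a2 and chr2:192214306-192214555 on the plus strand for Casq2. Of the 7 symbols, 6 had an entry in the table; Sln had none.
Atp2a1: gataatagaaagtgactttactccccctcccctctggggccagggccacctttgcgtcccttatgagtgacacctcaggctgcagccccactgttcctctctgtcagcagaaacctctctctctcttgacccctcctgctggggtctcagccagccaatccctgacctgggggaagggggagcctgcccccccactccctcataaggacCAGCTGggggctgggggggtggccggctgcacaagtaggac
Casq1: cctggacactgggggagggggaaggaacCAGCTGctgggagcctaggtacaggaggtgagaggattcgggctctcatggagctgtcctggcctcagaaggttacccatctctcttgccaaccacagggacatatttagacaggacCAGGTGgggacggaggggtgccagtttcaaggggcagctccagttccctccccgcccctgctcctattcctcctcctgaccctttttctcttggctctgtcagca
Atp2a2: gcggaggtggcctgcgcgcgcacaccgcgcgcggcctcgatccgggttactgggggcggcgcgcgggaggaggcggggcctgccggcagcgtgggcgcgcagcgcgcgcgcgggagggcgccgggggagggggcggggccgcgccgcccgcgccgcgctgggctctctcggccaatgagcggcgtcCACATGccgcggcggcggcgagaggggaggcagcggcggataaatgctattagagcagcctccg
Casq2: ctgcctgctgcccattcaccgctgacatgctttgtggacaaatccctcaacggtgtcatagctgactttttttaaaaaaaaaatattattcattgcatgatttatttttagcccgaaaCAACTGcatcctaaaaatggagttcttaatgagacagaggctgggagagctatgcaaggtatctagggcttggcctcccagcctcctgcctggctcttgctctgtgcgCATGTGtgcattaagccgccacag
Atp2a2 held 1 E-box, Atp2a1 1, Casq1 2 and Casq2 2, where 65.5% of 33469 rat promoters of this length held at least 1. A match to the consensus of MEF2, a muscle transcription factor, was present in Casq2 and in 2.96% of all promoters. The promoter of Atp2a2 differed from the others in base composition, with 80% G and C and 45 CG dinucleotides, whereas the median promoter held 51.2% and 5, and 0.415% of promoters held as many CG. Atp2a1 and Casq1 held 62.4% and 59.6% G and C with 2 and 3 CG, and Casq2 46.4% with 5. These matches describe letters in a window and not binding.

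Levels are given as CPM, a gene's counts relative to the scaled library total, on a scale set over all libraries, and differences as log2 changes with a standard error (SE) from limma-voom. CPM does not correct for gene length, so levels are compared between samples of a gene and not between genes. A gene was called when its Benjamini-Hochberg adjusted p was under 0.05 and its change over 1.5-fold. In bulk tissue, fewer fibres of a kind and less RNA per fibre cannot be told apart.

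Sln rose with age in every muscle, with by far the largest log2 changes in the fast limb muscles, where it started lowest. In the tibialis anterior its level ran from 0.0373 to 0.965 CPM at 6 months with a median of 0.28, which rested on a median of 9 counts a library, and from 8.06 to 53.1 CPM at 27 months with a median of 31.8. Every library of 27 months lay above every library of 6 months. The log2 change was 6.58 (SE 0.81, n = 12 and 12, adjusted p = 2.2e-11, limma), a fitted fold of 95.8 whose size depends on those low counts. Leaving out each library of 6 or 27 months in turn gave 6.39 to 6.74.

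In the gastrocnemius Sln ran from 0.487 to 2.29 CPM at 6 months (median 1.62, n = 10) and from 37.9 to 125 CPM at 27 months (median 78.3, n = 11), again without overlap. The log2 change was 5.53 (SE 0.35, adjusted p = 3.3e-22, limma), or 46.1-fold. In the soleus, where Sln was already present in the young muscle, the range moved from 8.39 to 16.9 CPM (median 11.2) to 22 to 69.4 CPM (median 54.4), also without overlap, and the log2 change was 2.14 (SE 0.19, adjusted p = 8.4e-17, limma). In the diaphragm 11 of 12 libraries of 27 months lay above all 12 of 6 months, with 11.4 to 25.9 CPM (median 15) at 6 months and 25.1 to 47.9 CPM (median 33) at 27 months. The log2 change there was 1.08 (SE 0.13, adjusted p = 5.3e-11, limma). Groups of 27 and 6 months that do not overlap were found, of 12784 genes, for 18.6% (tibialis anterior), 13.1% (gastrocnemius), 5.38% (soleus) and 2.69% (diaphragm).

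**Figure D1:**
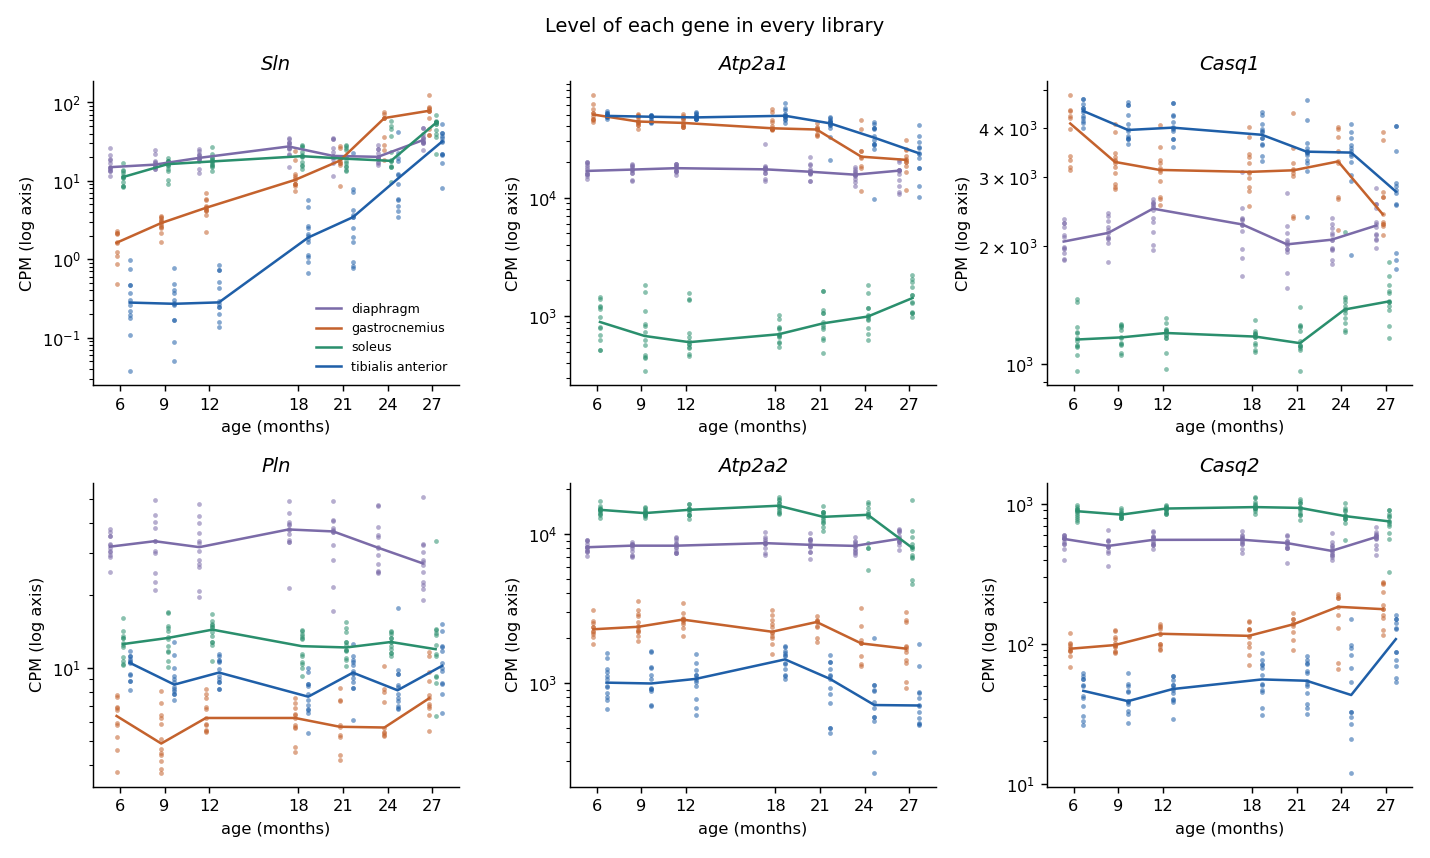
Level of Sln, Pln, Atp2a1, Atp2a2, Casq1 and Casq2 in CPM (log axis) against age in months, 1 point per library, 4 muscles in colour, points shifted sideways by muscle, lines through the group medians. Sln climbs in the tibialis anterior from a median of 0.28 to 31.8 CPM and in the gastrocnemius from 1.62 to 78.3 CPM, while Atp2a1 is lowest in the same muscles at 27 months.

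The gastrocnemius moved from below the diaphragm to above it for Sln, and the tibialis anterior had the lowest median at both ages. At 6 months the medians ran diaphragm (15 CPM), soleus (11.2), gastrocnemius (1.62) and tibialis anterior (0.28). The soleus lay below the diaphragm by a log2 difference of -0.51 (95% normal interval -0.91 to -0.11), which was not called, and every other step of that order was. At 27 months the order was gastrocnemius (78.3), soleus (54.4), diaphragm (33) and tibialis anterior (31.8). Of its neighbouring steps none was called: soleus minus gastrocnemius was -0.50 (-0.83 to -0.17), soleus minus diaphragm 0.49 (0.16 to 0.81) and tibialis anterior minus diaphragm -0.33 (-0.67 to 0.01), whereas gastrocnemius minus diaphragm was called at 0.99 (SE 0.17).

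The age change of Sln itself differed between muscles in a joint fit over all libraries. It was larger in the tibialis anterior than in the soleus by a log2 value of 4.46 (SE 0.72, adjusted p = 2.7e-08, limma) and than in the diaphragm by 5.45 (SE 0.71, adjusted p = 7.8e-12), and larger in the gastrocnemius than in the diaphragm by 4.38 (SE 0.45, adjusted p = 3e-17). The soleus exceeded the diaphragm by 0.99 (SE 0.26, adjusted p = 0.00122). Between tibialis anterior and gastrocnemius the difference of 1.08 had an interval of -0.50 to 2.65 and was not called. The size of the tibialis anterior values depends on its median of 9 counts a library at 6 months.

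The ages at which Sln was called are given for each muscle; whether the start of the rise differed between muscles was not tested. In the gastrocnemius Sln was called from 12 months on (log2 change 1.60), and its medians went from 4.53 CPM at 12 months to 10.3 at 18, 18.1 at 21 and 63.3 at 24 months. The 12-month interval of the tibialis anterior, -1.95 to 2.36, was wide. Its medians at 6, 9 and 12 months lay at 0.28, 0.271 and 0.282 CPM, and Sln was called from 18 months on, with log2 changes of 2.72 at 18, 3.48 at 21 and 5.26 at 24 months. In the soleus the change at 12 months was 0.68 (adjusted p = 0.0534, limma) with 7 of 12 libraries above all young ones, and Sln was called at 18 (0.88), 21 (0.80), 24 (1.04) and 27 months. In the diaphragm it was called at 18 months (0.73) and 27 months, while the changes of 0.50 at 21 and 0.39 at 24 months stayed under 1.5-fold.

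From 24 to 27 months Sln rose again in every muscle, with log2 changes of 1.32 for tibialis anterior (SE 0.24, adjusted p = 7.6e-06, limma), 1.10 for soleus (SE 0.16, adjusted p = 1.6e-07), 0.69 for diaphragm (SE 0.12, adjusted p = 4.3e-06) and 0.63 for gastrocnemius (SE 0.19, adjusted p = 0.0457). The gastrocnemius call was lost when libraries were scaled by their total counts (0.65, adjusted p = 0.074). In the soleus at 24 months, 4 libraries (replicates 5, 6, 7 and 11) held Sln at 37.6 to 57.2 CPM, and the other 8 held 9.73 to 23.5 CPM. This split was made after seeing the values. The range of 27 months, 22 to 69.4 CPM, held these 4 and also the highest of the other 8. The soleus library of replicate 9 at 27 months held 22 CPM, the lowest of its group.

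Pln, the other peptide that restrains the pumps, was called in no muscle at any age. In the diaphragm, where it was highest, it ran from 24.9 to 37.7 CPM (median 31.8) at 6 months and from 19.1 to 51.2 CPM (median 27.2) at 27 months, a log2 change of -0.26 (SE 0.14, adjusted p = 0.131, limma). In the gastrocnemius it went from a median of 6.36 to 7.52 CPM, a change of 0.44 (SE 0.14, adjusted p = 0.00374) that stayed under 1.5-fold. With total counts as the scale the gastrocnemius change was 0.72 and was called. In the soleus (-0.02, SE 0.12) and tibialis anterior (0.06, SE 0.11) the groups overlapped. A single soleus library of 27 months, replicate 8, held 33.5 CPM, whereas the other 11 held 6.37 to 14.5; without it the soleus change was -0.17 (adjusted p = 0.131).

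The count ratio of Sln to Pln within a library, which is not corrected for length and is read only for its change, moved up in all 4 muscles. Between 6 and 27 months its log2 median went from -5.17 to 1.41 (tibialis anterior), from -1.79 to 3.26 (gastrocnemius) and from -1.04 to 0.29 (diaphragm). The highest library of 6 months lay below the lowest of 27 months for the tibialis anterior (-3.45 and 0.04), gastrocnemius (-1.38 and 1.97) and, narrowly, soleus (0.70 and 0.76).

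**Figure D2:**
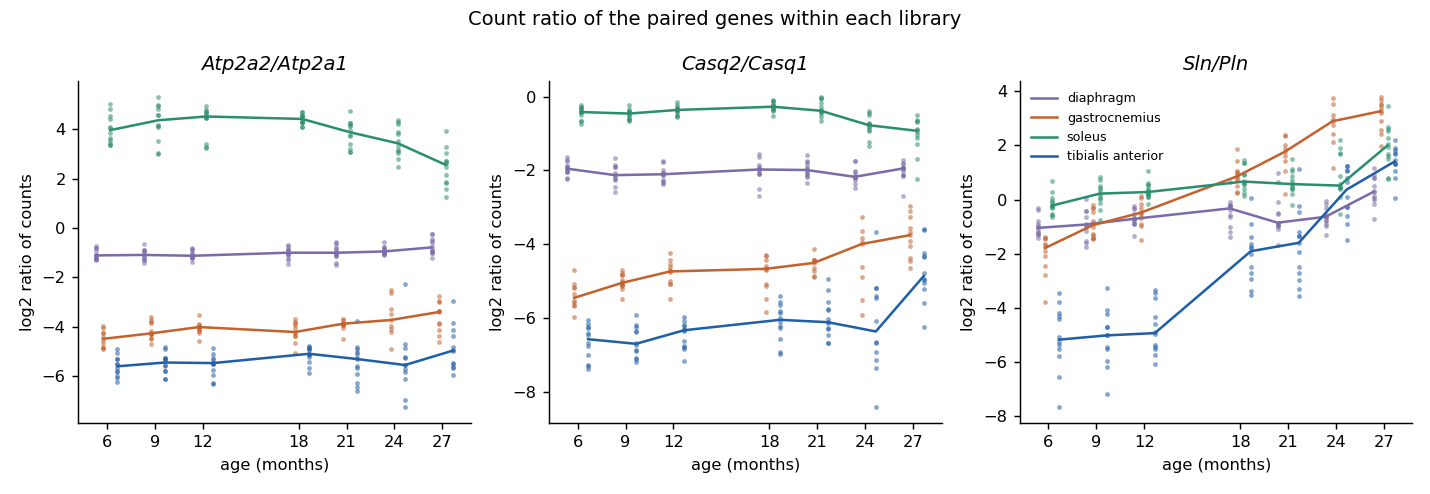
Log2 ratio of counts within each library against age in months for Atp2a2/Atp2a1, Casq2/Casq1 and Sln/Pln, 1 point per library, lines through the group medians. Between 6 and 27 months the median pump ratio of the soleus drops from 3.97 to 2.56 while the medians of the gastrocnemius and tibialis anterior move up.

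Atp2a1, the pump of fast fibres, fell in both fast limb muscles. In the tibialis anterior it ran from 46345 to 53741 CPM (median 48788) at 6 months and from 10180 to 40917 CPM (median 23605) at 27 months, and no library of 27 months reached the lowest of 6 months. The log2 change was -1.14 (SE 0.14, adjusted p = 7.4e-12, limma). In the gastrocnemius the range went from 43332 to 73401 CPM (median 50074) to 11597 to 30817 CPM (median 20782), without overlap, and the log2 change was -1.32 (SE 0.12, adjusted p = 1.0e-14). In the diaphragm the groups overlapped, with medians of 16763 and 16864 CPM and a change of -0.18 (SE 0.08, adjusted p = 0.0404) that stayed under 1.5-fold.

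In the soleus Atp2a1 went the other way: it ran from 518 to 1439 CPM (median 893) at 6 months and from 980 to 2207 CPM (median 1422) at 27 months, with 6 of 12 old libraries above all young ones. It rose by 0.70 (SE 0.21, adjusted p = 0.00368, limma), a call lost with Bonferroni adjustment. The age change of Atp2a1 differed between soleus and gastrocnemius by a log2 value of 2.01 (SE 0.23, adjusted p = 1.2e-14) and between tibialis anterior and soleus by -1.84 (SE 0.22, adjusted p = 7.5e-14). Contractile genes of fast fibres moved with it in the soleus: 8 of 9 were called as higher at 27 months, beside 9.21% of all genes. Their median log2 change was 2.58. The summed level went from 1676 to 5267 CPM at 6 months to 2492 to 11831 CPM at 27 months. With the slow minus fast contractile score as a covariate, the soleus change of Atp2a1 was -0.22 (adjusted p = 0.29); the part of the fibre makeup in it was not tested further.

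Atp2a2, the pump of slow fibres and the heart, fell in the soleus. At 6 months the soleus held 12818 to 16703 CPM (median 14503), and at 27 months 4608 to 16939 CPM (median 8038). 11 of 12 old libraries lay below all young ones, and the exception was replicate 9, which held 16939 CPM and the lowest Sln of its group. The log2 change was -0.85 (SE 0.11, adjusted p = 4.6e-10, limma). At 24 months the 4 soleus libraries with high Sln held Atp2a2 at 5739 to 8728 CPM and the other 8 at 12994 CPM or more. The slow contractile genes moved with it, as their summed level ran from 52780 to 65916 CPM at 6 months and from 21999 to 66366 CPM at 27 months. Yet 1 of 7 was called as lower, beside 5.78% of all genes, and the median log2 change was -0.37. With the contractile score as a covariate the Atp2a2 change was -0.52 (adjusted p = 1.3e-04), under 1.5-fold.

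In the other muscles Atp2a2 was not called at 27 months. Its change was -0.46 (SE 0.14, adjusted p = 0.00323, limma) in the gastrocnemius, -0.42 (SE 0.20, adjusted p = 0.0508) in the tibialis anterior and 0.16 (SE 0.05, adjusted p = 0.00761) in the diaphragm. With the contractile score as a covariate the gastrocnemius change was -0.70 (adjusted p = 5.6e-10) and was called. The median went from 2292 to 1699 CPM in the gastrocnemius, from 1005 to 706 CPM in the tibialis anterior and from 8136 to 9268 CPM in the diaphragm. The age change in the soleus minus that in the diaphragm was -1.07 (SE 0.22, adjusted p = 2.1e-05, limma), while soleus and gastrocnemius (-0.40, interval -0.83 to 0.02) were not told apart. The median ratio of Atp2a2 to Atp2a1 counts drew closer between muscles. Its log2 medians at 6 and 27 months were 3.97 and 2.56 (soleus), -1.11 and -0.78 (diaphragm), -4.49 and -3.40 (gastrocnemius) and -5.60 and -4.96 (tibialis anterior). Libraries of 6 and 27 months overlapped in every muscle, in the tibialis anterior with -6.25 to -4.90 and -5.94 to -2.97. The tibialis anterior median at 24 months was -5.55. Whether the muscles converged was not tested.

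Of the calsequestrins, the slow and cardiac form Casq2 rose in the fast limb muscles. In the tibialis anterior it ran from 26.3 to 62.2 CPM (median 46) at 6 months and from 53 to 161 CPM (median 108) at 27 months, with 10 of 12 old libraries above all young ones. The log2 change was 1.22 (SE 0.23, adjusted p = 1.9e-06, limma). In the gastrocnemius 10 of 11 old libraries lay above all young ones, with a median of 92.2 CPM at 6 months and 177 CPM at 27 months, and the rise was 1.04 (SE 0.16, adjusted p = 3.8e-08). Of the markers of heart muscle, Myl7, an atrial light chain, had 0 counts in every tibialis anterior library of 6 and 27 months. Nppa and Nppb, natriuretic peptides of the heart, had 0 counts at 6 months and at most 0.0483 and 0.0453 CPM at 27 months. Of the 6 heart genes, 2 passed the filter in the tibialis anterior, where Myh6 was called at -1.47 and Hcn4 at 0.61. The summed level of the 6 heart genes in the tibialis anterior ran from 2.91 to 23.8 CPM at 6 months and from 2.2 to 16.9 CPM at 27 months.

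Fibre markers of the fast limb muscles are given beside these changes. Slow-fibre genes were called as lower for 3 of 7 in the tibialis anterior (median log2 change -0.55) and for 0 of 7 in the gastrocnemius (median -0.04, unadjusted p under 0.05 for 2, limma). Fast-fibre genes were called as lower for 3 of 9 in each (medians -0.39 and -0.49). Of all genes tested, 10.4% (tibialis anterior) and 7.76% (gastrocnemius) were called as lower. With the contractile score as a covariate, the changes in the tibialis anterior were -1.14 for Atp2a1, -0.69 for Casq1 and 1.22 for Casq2, and in the gastrocnemius -1.16, -0.39 and 0.81, and each stayed on its side of the call. In the soleus and diaphragm Casq2 was not called, at -0.28 (SE 0.08, adjusted p = 0.00195, limma) and 0.03 (SE 0.07, adjusted p = 0.758). The age change of Casq2 in the soleus differed from that in the tibialis anterior (tibialis anterior minus soleus 1.52, SE 0.22, adjusted p = 3e-10) and in the gastrocnemius (soleus minus gastrocnemius -1.33, SE 0.22, adjusted p = 1.2e-07). The lowest old soleus library was replicate 8, which lay below the 560 to 909 CPM of the other 11.

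Casq1, the fast form, fell in the tibialis anterior, where 10 of 12 libraries of 27 months (1745 to 4049 CPM, median 2754) lay below all of 6 months (4002 to 4734 CPM, median 4415). The log2 change was -0.68 (SE 0.09, adjusted p = 1.5e-10, limma), and -0.37 with total counts as the scale, where it was not called. In the gastrocnemius the median went from 4103 to 2410 CPM and the change of -0.56 (SE 0.10, adjusted p = 4.4e-06) stayed just under 1.5-fold. It passed that limit without any 1 of 4 libraries (replicates 1 and 3 of 6 months, 5 and 6 of 27 months), at -0.59 to -0.62. In the soleus the change was 0.33 (SE 0.06, adjusted p = 2.4e-06) and in the diaphragm 0.11 (SE 0.06, adjusted p = 0.155), neither past 1.5-fold. The tibialis anterior differed from the soleus by -1.01 (SE 0.11, adjusted p = 9.2e-16). The ratio of Casq2 to Casq1 counts moved up from a log2 median of -6.58 to -4.86 in the tibialis anterior and from -5.46 to -3.76 in the gastrocnemius, and moved down from -0.42 to -0.93 in the soleus.

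**Figure D3:**
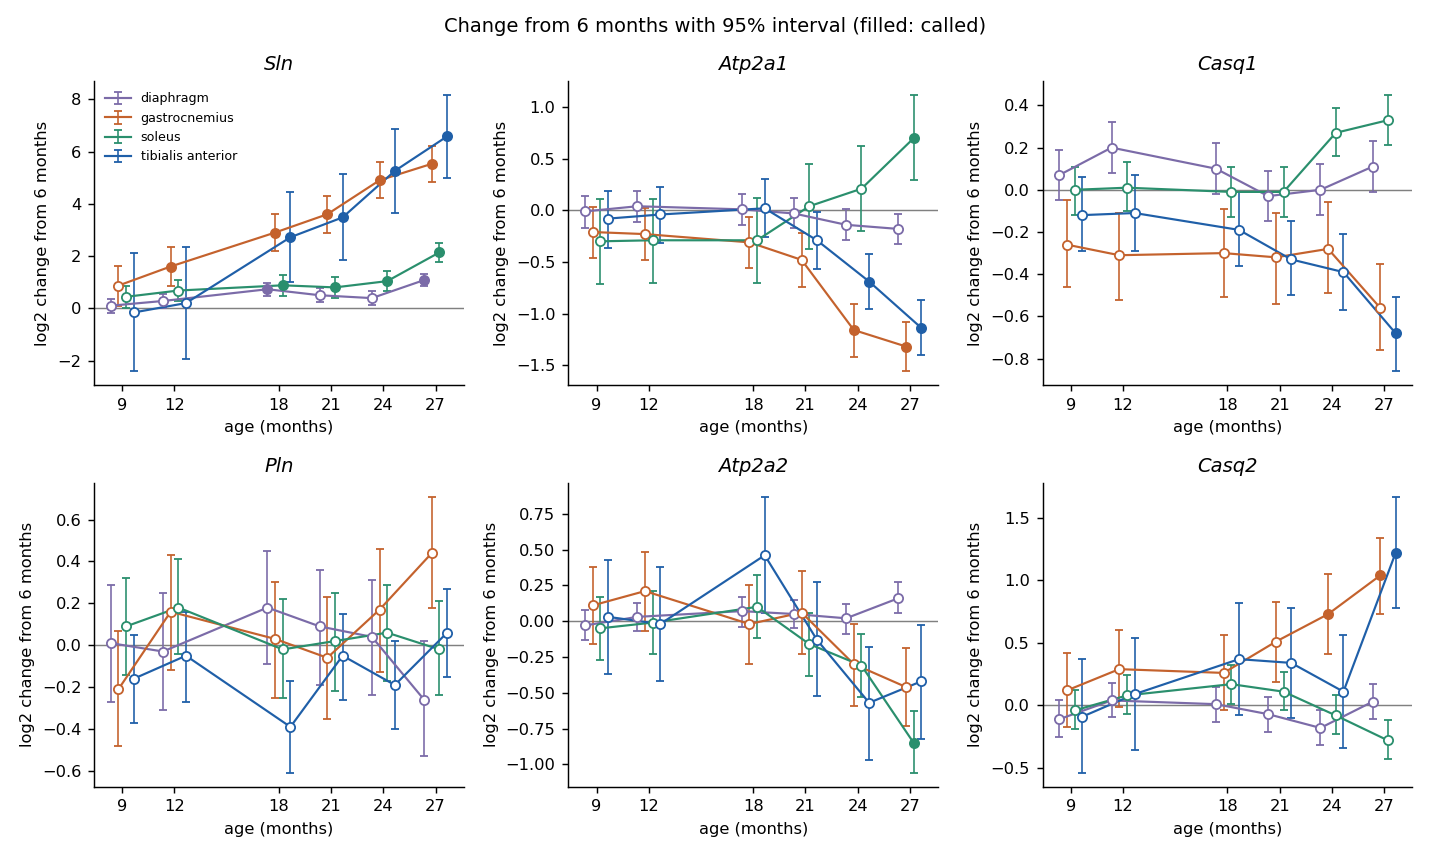
Log2 change from 6 months at each later age in months for the 6 genes, with 95% normal intervals, 1 line per muscle; filled points are called (adjusted p under 0.05 and over 1.5-fold) and open points are not. Atp2a1 is called at 24 and 27 months in both fast limb muscles, and Casq2 at those ages in the gastrocnemius. In the tibialis anterior Casq2 is called at 27 months only. The gastrocnemius intervals of Atp2a1 (-0.48) and Casq2 (0.51) already leave out 0 at 21 months, under 1.5-fold. Sln of the fast limb muscles is called from 18 months or earlier.

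Calls among the 6 genes are set beside the share of all genes called, which was also higher in the limb muscles and at later ages. At 27 against 6 months 1 gene was called in the diaphragm, where 7.52% of all genes tested were called, 3 for gastrocnemius (22.8%), 3 for soleus (15%) and 4 for tibialis anterior (27.6%). Higher at 27 months were 1, 2, 2 and 2 genes in that order, against 3.27%, 15.1%, 9.21% and 17.2% of all genes, and lower were 0, 1, 1 and 2, against 4.25%, 7.76%, 5.78% and 10.4%. The median log2 change over the 6 genes was -0.18 (tibialis anterior), -0.01 (gastrocnemius), 0.16 (soleus) and 0.07 (diaphragm), while the median of all genes lay between 0.00 and 0.04.

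Up to 21 months every call was Sln, and at 24 months other genes were called as well in the fast limb muscles. In the diaphragm the counts called at 9, 12, 18, 21 and 24 months were 0, 0, 1, 0 and 0 of 6, where 0.108%, 0.532%, 2.25%, 1.68% and 2.68% of all genes were called. In the gastrocnemius they were 0, 1, 1, 1 and 3, where 0.143%, 0.885%, 4.32%, 5.81% and 18.8% were called. In the soleus they were 0, 0, 1, 1 and 1, where 0.123%, 0.353%, 2.84%, 2.61% and 6.51% were called. In the tibialis anterior they were 0, 0, 1, 1 and 2, where 0.00851%, 0.196%, 5.45%, 6.47% and 14.5% were called. Where limma called 0 of the 6 genes, the unadjusted p was under 0.05 for 0, 2, 1 and 2 of them in the diaphragm at 9, 12, 21 and 24 months, for 2 in the gastrocnemius at 9 months, for 1 and 1 in the soleus and for 0 and 0 in the tibialis anterior at 9 and 12 months. The 24-month calls beside Sln were Atp2a1 in the gastrocnemius (-1.16) and tibialis anterior (-0.69) and Casq2 in the gastrocnemius (0.73). In the tibialis anterior at 24 months, replicate 6 held Atp2a1 at 9638 CPM against 25426 to 43410 CPM in the other 11. Without it the change was -0.55 (adjusted p = 6.77e-05, limma), and only the 1.5-fold limit was missed. All 12 libraries of 24 months lay below the lowest of 6 months. From 24 to 27 months 1 gene was called for diaphragm (4.39% of all genes), 1 for gastrocnemius (0.624%), 1 for soleus (4.52%) and 2 for tibialis anterior (6.08%), where the other gene was Casq2 at 1.12 (SE 0.23, adjusted p = 4.6e-05, limma).

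A model of each gene over all 7 ages (flat, straight line or logistic curve, compared by the Bayesian information criterion) found a trend for 2 genes (diaphragm), 6 (gastrocnemius), 5 (soleus) and 5 (tibialis anterior). With total counts as the scale the numbers were 2, 4, 4 and 4. Sln followed a line in the diaphragm, gastrocnemius and soleus, and a late curve in the tibialis anterior with its midpoint at 25 months. That midpoint belongs to the fitted curve, whose upper end is not bound to the ages sampled. Sln was already called there at 18 months (log2 change 2.72) and 21 months (3.48). Atp2a1 fell on a late curve in the gastrocnemius (midpoint 22.25 months) and tibialis anterior (24 months), and climbed on a late curve in the soleus (25.25 months). Atp2a2 of the soleus was a late fall whose midpoint sat at 27 months, the end of the range, and Casq2 of the tibialis anterior a late rise with the same midpoint. Casq1 fell on a line in both fast limb muscles, and in the gastrocnemius this trend was lost with total counts. Pln had a trend in the gastrocnemius and in no other muscle. It passed the limit of 6 barely, as the criterion improved by 6.0 after rounding. The trend of Atp2a2 in the diaphragm was also narrow, at 6.2.

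Between muscles of the same age, 4 to 6 of the 6 genes were called at 6 months and 3 to 5 at 27 months. At 6 months 6 were called for gastrocnemius minus diaphragm (37.3% of all genes tested), 5 for soleus minus diaphragm (23.9%), 6 for tibialis anterior minus diaphragm (35.1%), 6 for soleus minus gastrocnemius (45.4%), 4 for tibialis anterior minus gastrocnemius (17.3%) and 5 for tibialis anterior minus soleus (42.9%). At 27 months the counts in that order were 4 (32.3%), 3 (27.9%), 3 (27.4%), 5 (34%), 3 (10.4%) and 5 (31.7%). The widest gap at 6 months was that of Atp2a1 between soleus and gastrocnemius, -5.85 on the log2 scale (SE 0.16), which was -3.84 (SE 0.16) at 27 months. For Casq2 the tibialis anterior minus soleus difference was -4.33 (SE 0.15) at 6 months and -2.81 (SE 0.15) at 27 months.

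The age change differed between muscles for 6 of 6 genes for gastrocnemius minus diaphragm (21.6% of all genes tested), 3 for soleus minus diaphragm (11.9%), 5 for tibialis anterior minus diaphragm (20.3%), 4 for soleus minus gastrocnemius (14.5%), 0 for tibialis anterior minus gastrocnemius (7.32%) and 4 for tibialis anterior minus soleus (15.8%). For the pair of fast limb muscles limma gave an unadjusted p under 0.05 for 0 of the 6 genes and edgeR called 0. The intervals of their differences were -0.31 to 0.67 for Atp2a1, -0.35 to 0.43 for Atp2a2, -0.36 to 0.10 for Casq1, -0.22 to 0.62 for Casq2 and -0.80 to 0.04 for Pln. The age change of Pln was called for gastrocnemius minus diaphragm (0.65, SE 0.20, adjusted p = 0.00289, limma), a call lost with Bonferroni adjustment or a 2-fold threshold. With total counts as the scale, Pln was also called for tibialis anterior minus diaphragm (0.59, adjusted p = 0.0041) and soleus minus gastrocnemius (-0.61, adjusted p = 0.021).

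Other genes of calcium handling were taken from a list of 57, of which 50 were found. At 27 months 20 of 49 tested were called for tibialis anterior, 11 of 49 for gastrocnemius, 7 of 49 for soleus and 2 of 48 for diaphragm. By direction, 7 were higher and 13 lower for tibialis anterior (17.2% and 10.4% of all genes), 4 and 7 for gastrocnemius (15.1% and 7.76%), 6 and 1 for soleus (9.21% and 5.78%) and 1 and 1 for diaphragm (3.27% and 4.25%). The lower genes of the fast limb muscles included several that build the triad, the junction where the surface membrane meets the store. In the tibialis anterior 6 of 12 triad and voltage-sensor genes were called as lower and 2 as higher, and in the gastrocnemius 4 and 1. The median log2 change of those 12 was -0.56 and -0.34, beside 0.02 and 0.04 for all genes.

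The largest rises of the list in tibialis anterior were Orai2 (log2 change 1.90, SE 0.17), a channel of store-operated calcium entry, Ryr2 (1.56, SE 0.20), the ryanodine receptor of the heart, which stayed low at medians of 0.639 and 2.24 CPM, and Cacnb1 (1.09, SE 0.08), a subunit of the voltage sensor. The largest falls were Trdn (-1.16, SE 0.14), which encodes triadin, the link between calsequestrin and the release channel, Micu3 (-1.05, SE 0.10), a partner of the mitochondrial calcium uniporter, and Calm3 (-1.04, SE 0.11), a calmodulin gene. In the gastrocnemius Orai2 (1.32), Atp2b2 (1.25), a calcium pump of the surface membrane, and Ryr2 (1.17) rose, and Jph2 (-0.91), a junctophilin that holds the triad membranes together, Cacna1s (-0.90), the pore of the voltage sensor, and Calm3 (-0.87) fell.

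In the soleus Pvalb, parvalbumin, the calcium buffer of fast fibres, went from 0.0923 to 3.32 CPM (median 0.398) at 6 months to 1.49 to 67.6 CPM (median 31.8) at 27 months, a log2 change of 6.12 (SE 1.34, adjusted p = 7.3e-05, limma). Cacnb1 (1.13) and Mrln (0.97), which encodes myoregulin, another peptide that restrains SERCA, rose as well, and Trdn fell (-0.78). In the diaphragm the calls were Trdn (-1.16, SE 0.13) and Atp2b2 (1.12, SE 0.18). Trdn was thus called as lower in the diaphragm, soleus and tibialis anterior, and its change in the gastrocnemius, which was not called, had the opposite sign.

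**Figure D4:**
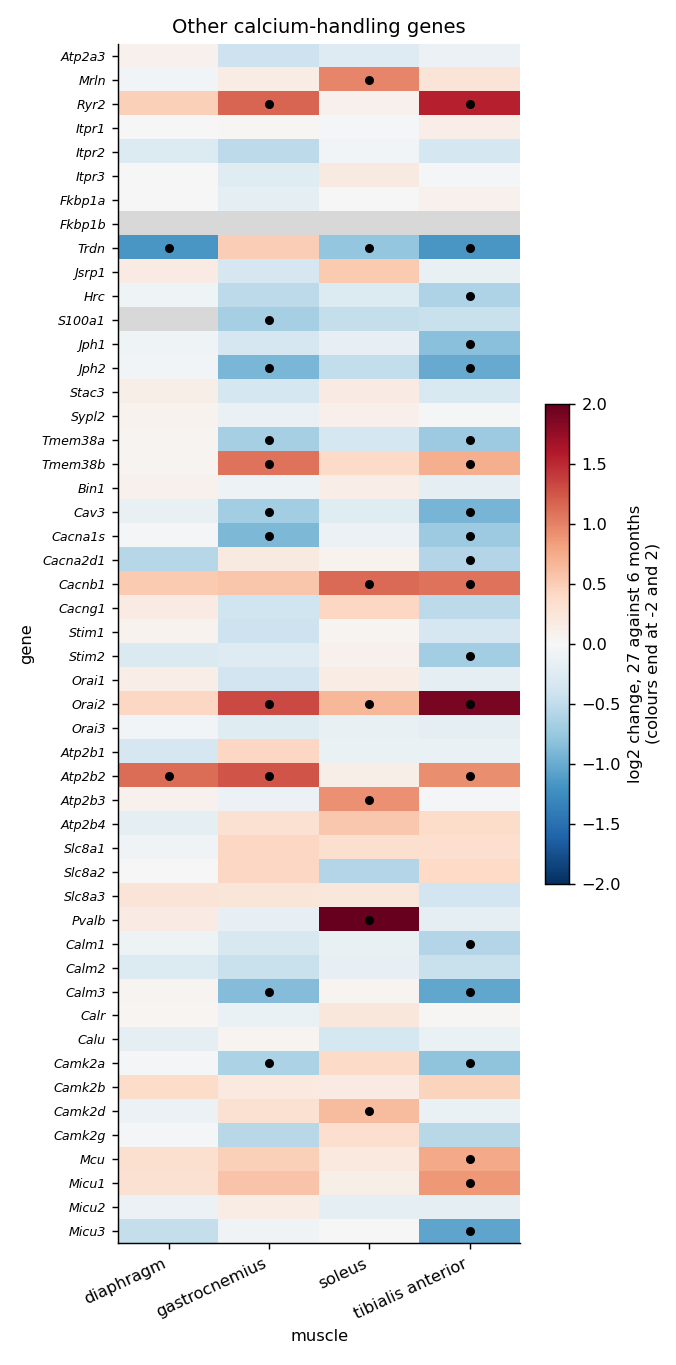
Log2 change at 27 against 6 months for 50 other calcium-handling genes (rows) in the 4 muscles (columns); colours end at -2 and 2, black dots mark called genes and grey cells were not tested. The tibialis anterior carries 20 dots and the diaphragm 2.

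Markers of other cell types and states moved with age too. All 7 genes known to rise in denervated fibres, among them the acetylcholine receptor subunits Chrnd and Chrng, were called as higher at 27 months in each muscle. Their median log2 changes were 4.83 (tibialis anterior), 3.34 (gastrocnemius), 1.81 (soleus) and 1.29 (diaphragm). Their summed level in the tibialis anterior ran from 52 to 79.1 CPM at 6 months and from 566 to 2495 CPM at 27 months. Of the 7, the study had already reported Chrnd, Musk and Ncam1 as increased in old rat muscles. Of all genes tested, 17.2%, 15.1%, 9.21% and 3.27% were called as higher in the same order of muscles, and 10.4%, 7.76%, 5.78% and 4.25% as lower. Macrophage markers were called as higher for 5 of 5 genes in both fast limb muscles, 1 in the soleus and 0 in the diaphragm, and adipocyte markers for 4 of 4 in the 3 limb muscles and 0 in the diaphragm. Smooth muscle markers, of interest because smooth muscle also uses SERCA2 and phospholamban, summed to 226 to 350 CPM at 6 months and 208 to 361 CPM at 27 months in the tibialis anterior, where 2 of 6 were called as higher and 1 as lower, as in the gastrocnemius. Where limma called 0 markers, the unadjusted p was under 0.05 for 3 of 5 macrophage and 0 of 4 adipocyte genes in the diaphragm, and for 0 of 3 red cell genes in each muscle. The part of these cell types in the changes above was not tested.

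Among the rats of 27 months, Sln was higher where the denervation genes were higher. Over the 12 libraries of the tibialis anterior, Pearson's r of log2 CPM of Sln with the list mean was 0.93 (permutation p adjusted over 8 relations = 5.6e-04), Spearman's rho was 0.84 (adjusted permutation p = 0.00888), and r was 0.77 without the 2 libraries farthest from the median of the list. In the soleus r was 0.90 (adjusted permutation p = 0.00352), rho 0.78 (adjusted permutation p = 0.0152) and r without the farthest 2 was 0.74. In the gastrocnemius r was 0.81 (adjusted permutation p = 0.00747), but rho was 0.59 (adjusted permutation p = 0.162) and r fell to 0.49, so the relation rests on those 2 libraries. In the diaphragm r was 0.57 (adjusted permutation p = 0.0821). The slow minus fast contractile score showed no relation with Sln that passed the threshold; the closest was the soleus at -0.65 (adjusted permutation p = 0.0592), which was -0.09 without the farthest 2. All libraries of 27 months of a muscle belong to the same running series.

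**Figure D5:**
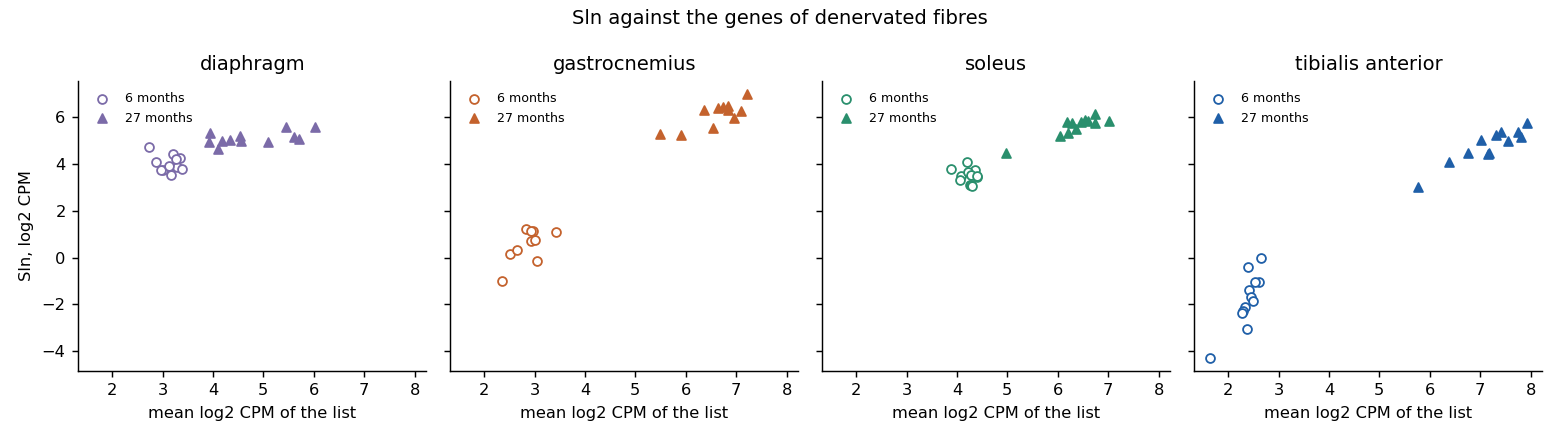
Log2 CPM of Sln against the mean log2 CPM of 7 denervation genes, 1 point per library, open circles for 6 months and filled triangles for 27 months, 1 panel per muscle. Within the triangles of the soleus and tibialis anterior the points climb together, and the lowest triangle of each is replicate 9.

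Genes whose pattern over the 28 group means was most like that of a member were found by Pearson's r, given as a description over groups that share muscles and ages. For Sln they were Slc8b1 (0.939), the sodium and calcium exchanger of mitochondria, Cpt1a (0.938), which brings fatty acids into mitochondria, and Mob3a (0.935). Atp2a1 was most like Cd24 (0.994), Myoz1 (0.994) and Actn3 (0.993), the latter 2 being Z-disc genes of fast fibres, and Atp2a2 most like Prox1 (0.993), a transcription factor of slow fibres, Fgf1 (0.990) and Adamtsl3 (0.989). For Casq1 they were Atp1b2 (0.990), Cops3 (0.987) and Smarcd3 (0.985), for Casq2 Ift81 (0.988), Sdk2 (0.986) and Zp2 (0.986), and for Pln Shroom2 (0.983), Rgs7bp (0.977) and Syde2 (0.976). After each group mean was taken out, r over all libraries stayed high for Myoz1 with Atp2a1 (0.90) and Prox1 with Atp2a2 (0.79), and was low for Slc8b1 with Sln (0.29) and Adamtsl3 with Atp2a2 (-0.02). Within groups Sln and Pln hardly moved together (0.04), whereas Atp2a1 with Casq1 and Atp2a2 with Casq2 both gave 0.51.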

How the data were processed

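Total RNA of each muscle was sequenced as strand-specific libraries after removal of ribosomal RNA. The authors deposited raw read counts per gene for each library, made with the ArrayStudio software against the rat B6.0 genome and a RefSeq-based gene model; the version is not given in the sources used here. Counts of 17870 lines were summed by symbol to 17315 symbols (494 symbols were on more than 1 line, none of them a member). Genes were filtered with filterByExpr (minimum count 10, minimum total 15), scaled by TMM and fitted with limma-voom (limma 3.58.1, edgeR 4.0.16, R 4.3.3), with 1 fit per muscle over all ages and 1 joint fit of all libraries and 12784 genes. A call needed a Benjamini-Hochberg adjusted p under 0.05 over all genes tested and a change over 1.5-fold. Intervals are 95% normal intervals. Ratios within a library used counts plus 0.5. A trend needed the criterion to improve on a flat line by more than 6.

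The members and lists were chosen with earlier results of these data known. The named genes are the 6 listed members, the 3 genes most like each, and at most the 3 largest rises and falls of the wider list per muscle. No pair of libraries held identical counts. The labels number the libraries of a group but do not say which muscles came from the same rat, and the joint fit treats libraries as independent. Library totals were 17.6 to 85.3 M counts; counts of Sln were low in the gastrocnemius at 6 months (12 to 154) and in the tibialis anterior up to 21 months (as few as 1 at 6 and 12 at 21 months), where counting error is larger. DESeq2 1.42.0 and edgeR's quasi-likelihood test were alternatives.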

Additional observations from a re-analysis of the deposited data

Results flagged for a closer look

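A library far from the rest of its group was looked for in 18 combinations of a gene and a group, the 6 genes in the 3 gastrocnemius groups of 10 or fewer libraries (6, 21 and 24 months), where chance marks about 1 in 20. It was found once, for Sln in the gastrocnemius at 21 months, where replicate 0 held 8.61 CPM and its gap to the nearest library was 0.54 of the range of the group.

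The other results marked are differences between muscles in the age change from 6 to 27 months, tested in the joint limma fit. For gastrocnemius minus diaphragm they were 4.38 for Sln (adjusted p = 3e-17), 0.65 for Pln (0.00289), -1.19 for Atp2a1 (9.8e-06), -0.67 for Atp2a2 (0.00517), -0.71 for Casq1 (2.8e-08) and 0.95 for Casq2 (7.4e-05). For tibialis anterior minus diaphragm they were 5.45 for Sln (7.8e-12), -1.01 for Atp2a1 (0.00012), -0.63 for Atp2a2 (0.0057), -0.84 for Casq1 (1.9e-11) and 1.15 for Casq2 (1.1e-06).

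For soleus minus diaphragm the differences were 0.99 for Sln (0.00122), 0.83 for Atp2a1 (0.00084) and -1.07 for Atp2a2 (2.1e-05). For soleus minus gastrocnemius they were -3.38 for Sln (4e-11), 2.01 for Atp2a1 (1.2e-14), 0.88 for Casq1 (1.8e-11) and -1.33 for Casq2 (1.2e-07). For tibialis anterior minus soleus they were 4.46 for Sln (2.7e-08), -1.84 for Atp2a1 (7.5e-14), -1.01 for Casq1 (9.2e-16) and 1.52 for Casq2 (3e-10). With total counts as the scale, the differences of Atp2a2 and Casq1 from the diaphragm were no longer called in the gastrocnemius or tibialis anterior. Differences that involve the gastrocnemius cannot be told apart from its running series.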

How the results depend on the processing

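Of the values for single genes, 979 kept their direction and side of the threshold, 47 lost a call, 10 gained one and 14 changed sign; of the counts of genes called, 166 stayed within 1.5 times and 13 did not. Scaling by total counts moved the median change of all genes by 0.04 (diaphragm), 0.28 (gastrocnemius), 0.15 (soleus) and 0.32 (tibialis anterior), so changes are relative to that. It gave 0 genes called at 27 against 24 months in the gastrocnemius and 2 in the soleus, and the age-change differences of Atp2a2 from the diaphragm were -0.37 (gastrocnemius) and -0.30 (tibialis anterior) and those of Casq1 -0.42 and -0.52, no longer called. At 27 against 6 months in the soleus a 2-fold threshold left 1 gene and the fibre score covariate 1. For age changes between muscles, Bonferroni and the 2-fold threshold left 3 and 2 genes (gastrocnemius minus diaphragm), 1 and 1 (soleus minus diaphragm) and 3 and 3 (tibialis anterior minus diaphragm). The 2-fold threshold left 2 genes at 6 months (soleus minus diaphragm) and 3 each at 27 months for soleus minus gastrocnemius and tibialis anterior minus soleus.

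The sign of Pln in the soleus at 27 against 6 months was not stable: it was 0.12 with total counts, 0.01 with the fibre score, 0.10 with edgeR, 0.09 with DESeq2 and from -0.17 to 0.09 with a library left out. Against 24 months it was 0.0041 with total counts, and its age change for tibialis anterior minus soleus was -0.01 with edgeR. Atp2a1 in the soleus was -0.22 with the fibre score. With a library left out Casq2 in the diaphragm ran from -0.01 to 0.07. Leaving out each 24-month library, an alternative chosen after seeing the data, took 24 against 6 months to between -0.01 and 0.07 (Pln), -0.0018 and 0.03 (Atp2a2) and -0.01 and 0.02 (Casq1) in the diaphragm and between -0.04 and 0.28 (Casq2) in the tibialis anterior; Atp2a2 there was called without replicate 2, 5, 6, 8 or 10 (down to -0.70). The causes were not tested.

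Same-numbered libraries did not deviate together in every pair (for soleus and tibialis anterior, 59 of 84 correlations were over 0.1), and the labels do not say what a number shares, so the numbers were not taken as pairs. Yet 43 of 84 of these and 41 of 83 for diaphragm and tibialis anterior were most like their own number, against 13 of 72 for diaphragm and gastrocnemius. In the fits of 1 muscle, a block on the replicate number ties libraries of different ages, so it cannot speak to pairs between muscles. Pln in the soleus was 0.01 there. In the joint fit, libraries of the same age and number formed a block, with a block correlation of 0.066. No call of a member changed in either.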
